A study of Mus musculus with 6 samples.

Results

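Lin28b and the let-7 axis are described here through 10 genes: the LIN28 paralogs Lin28a and Lin28b, the let-7-repressed genes Hmga2, Igf2bp1, Igf2bp2, Igf2bp3 and Arid3a, the exonuclease gene Dis3l2, and the microRNA-processing genes Drosha and Dicer1. They were taken by gene symbol from a table of 35932 genes, and each symbol matched 1 gene. The set was proposed from the same contrast that is described below, so the values of these 10 genes are given as a description, with no p-values, and nothing is read from how many of them an all-gene test called. Of the 10 genes, 9 were among the 13414 genes with enough counts to be tested, and Igf2bp1 was not.

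The RNA came from mouse bone marrow, from myeloid leukemic blasts labelled MLL-AF9+, that is, carrying the fusion of the MLL (KMT2A) gene with AF9 that drives acute myeloid leukemia. The sensitive group held 3 libraries of chemosensitive blasts given vehicle, and the resistant group held 3 libraries of chemoresistant blasts given cytarabin (cytarabine, a nucleoside analog) with doxorubicin (an anthracycline). Every resistant library was drug-exposed and every sensitive library was not, so resistance and drug exposure cannot be told apart. Strain, age, dose, time since treatment, the way the fusion was introduced, and the number of animals or leukemic clones were not given in the sources used here, so the p-values below rest on how far these libraries differ among themselves, which need not be biological variation.

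LIN28A and LIN28B are RNA-binding proteins that hold precursors of the let-7 microRNAs back from maturation. Drosha and Dicer cut microRNA precursors in turn, in the nucleus and in the cytoplasm. Precursors bound by LIN28A can be given a tail of uridines by the terminal uridylyltransferases TUT4 and TUT7, and the tailed RNA is degraded by the exonuclease DIS3L2. Mature let-7 represses mRNAs that carry matches to its seed, among them HMGA2, the IGF2BP family and the LIN28 mRNAs themselves. In blood formation, high LIN28B with low let-7 is a feature of fetal progenitors, and adult marrow progenitors normally hold little LIN28B.

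The let-7 sequences are shown because all of the target sites below are read through one short stretch of them. The 12 mouse let-7 family hairpins of RefSeq gave 9 distinct mature sequences from the 5′ arm, and all 9 carried the seed GAGGUAG at bases 2 to 8, in capitals here.
let-7a-5p: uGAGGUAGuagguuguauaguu
let-7b-5p: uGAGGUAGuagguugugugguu
let-7c-5p: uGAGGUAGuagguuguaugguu
let-7d-5p: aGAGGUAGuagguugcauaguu
let-7e-5p: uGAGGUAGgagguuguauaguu
let-7f-5p: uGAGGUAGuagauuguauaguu
let-7g-5p: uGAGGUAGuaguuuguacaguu
let-7i-5p: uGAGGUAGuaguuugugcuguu
miR-98-5p: uGAGGUAGuaaguuguauuguu
Each was 22 bases long, and they differed from let-7a-5p at 1 to 4 bases, all of them outside the seed.

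Outside the mature arm, the hairpins differ in the loop, where LIN28 proteins are known to bind a GGAG motif through their zinc knuckles. Searched on the transcribed strand only, GGAG stood after the 5′ arm in 9 of the 12 let-7 family hairpins and was not found in Mirlet7b, Mirlet7c-2 or Mir98. Of all 1005 mouse hairpins in the same table, 44.5% held these 4 letters somewhere, so a match is a description of the letters and not a binding site. A hairpin with the motif (capitals) and one without it are shown, from RefSeq for GRCm38.p6.
Mirlet7g, chr9:106178840-106178927, plus strand: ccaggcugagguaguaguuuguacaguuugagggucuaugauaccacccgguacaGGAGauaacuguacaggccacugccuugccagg
Mirlet7b, chr15:85707319-85707403, plus strand: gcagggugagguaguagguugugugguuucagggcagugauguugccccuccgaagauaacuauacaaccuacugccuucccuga
Neither mature let-7 nor its precursors were measured by these libraries: 10 let-7 family genes were rows of the count table, and together they had 1 count over the 6 libraries.

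The DNA letters complementary to the seed are CTACCTC, and a site with an adenine after them (CTACCTCA) is the 8-base form, usually the most effective kind of microRNA site. These letters were counted on the mRNA strand of 1 annotated 3′ UTR per gene (GENCODE M21, GRCm38). Of the 10 genes, 7 had at least 1 site, and all 7 had the 8-base form, with 18 sites in all. The same letters stood in 9.12% of the 19670 genes of the table with a 3′ UTR, and in 20.1% of the 5078 genes whose 3′ UTR was at least 2000 bases long. These genes' UTRs were long, with a median of 2894.5 bases against 961 in the table, and 6 of the 7 with at least 2000 bases held a site. Several of the genes were known as let-7 targets when the set was drawn up, so this count describes the set and tests nothing.

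The 4 sites of Lin28b, the 2 of Lin28a, the 4 of Hmga2 and the 1 of Igf2bp3 are shown with the 18 bases before them, in the mRNA's direction and with the seed match in capitals. In Lin28b, the 8-base site began 36 bases into a 3′ UTR of 4445 bases, and the other sites began at bases 2410, 2582 and 3998.
Lin28b site 1, chr10:45381021-45381047, minus strand: ttcacccgggcgggaagtCTACCTCAt
Lin28b site 2, chr10:45378647-45378673, minus strand: acatatacttgttagtaaCTACCTCtg
Lin28b site 3, chr10:45378475-45378501, minus strand: tctgtttacagcacatggCTACCTCcc
Lin28b site 4, chr10:45377059-45377085, minus strand: tggaaatgatggcaccgaCTACCTCtt
Lin28a site 1, chr4:134005188-134005214, minus strand: agtgcacagcctgttgaaCTACCTCAt
Lin28a site 2, chr4:134004550-134004576, minus strand: tttgagatcgccacaaacCTACCTCAc
Hmga2 site 1, chr10:120364223-120364249, minus strand: ggcgccgacattcaatttCTACCTCAg
Hmga2 site 2, chr10:120362986-120363012, minus strand: aatccccactcctcaataCTACCTCtg
Hmga2 site 3, chr10:120362548-120362574, minus strand: ttcctgatttgcaaggaaCTACCTCca
Hmga2 site 4, chr10:120361690-120361716, minus strand: tacaatcaaaacacactaCTACCTCtt
Igf2bp3 site, chr6:49086786-49086812, minus strand: acgtgcatttttactcaaCTACCTCAg
Igf2bp1 also had 4 sites, 3 of them of the 8-base form, Arid3a had 2 and Igf2bp2 had 1. No match was found in the annotated 3′ UTRs of Dicer1 (3851 bases), Dis3l2 (350 bases) or Drosha (168 bases), which says only that these letters are not in those windows. Thus Lin28a and Lin28b both carry the letters that let-7 reads, and the 2 paralogs and Hmga2 are set side by side below.

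Library totals ran from 22206341 to 31856009 counts, and 17825 to 18654 genes were detected per library. Values below 3 counts in a library, that is below 0.0945 to 0.137 CPM (counts divided by each library's effective size), are at the limit of detection, and intervals and floors here cover counting error only. Levels are CPM scaled with edgeR's TMM factors unless counts are named. The 2 groups differed widely: edgeR's quasi-likelihood test called 5260 of 13414 genes, or 39.2%, at a Benjamini-Hochberg adjusted p of at most 0.05, with 2475 higher and 2785 lower in resistant blasts. The CPM of the groups did not overlap for 52.4% of the genes tested, 25.2% with all resistant libraries above and 27.2% with all of them below the sensitive ones.

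Against that background, 5 of the 9 genes of the axis in the fit were among those called, 4 of them higher (Lin28b, Dicer1, Dis3l2 and Drosha) and 1 lower (Lin28a), and 7 of the 9 did not overlap between groups. These counts describe the choice of the set. Drosha was not among those called with library totals alone, with no low-count filter, or without the first or the second resistant or the second or the third sensitive library. Hmga2 was called lower without the third resistant library. The median log2 fold change (resistant minus sensitive) was 0.16 over the 9 genes and -0.01 over all genes tested.

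**Figure D1:**
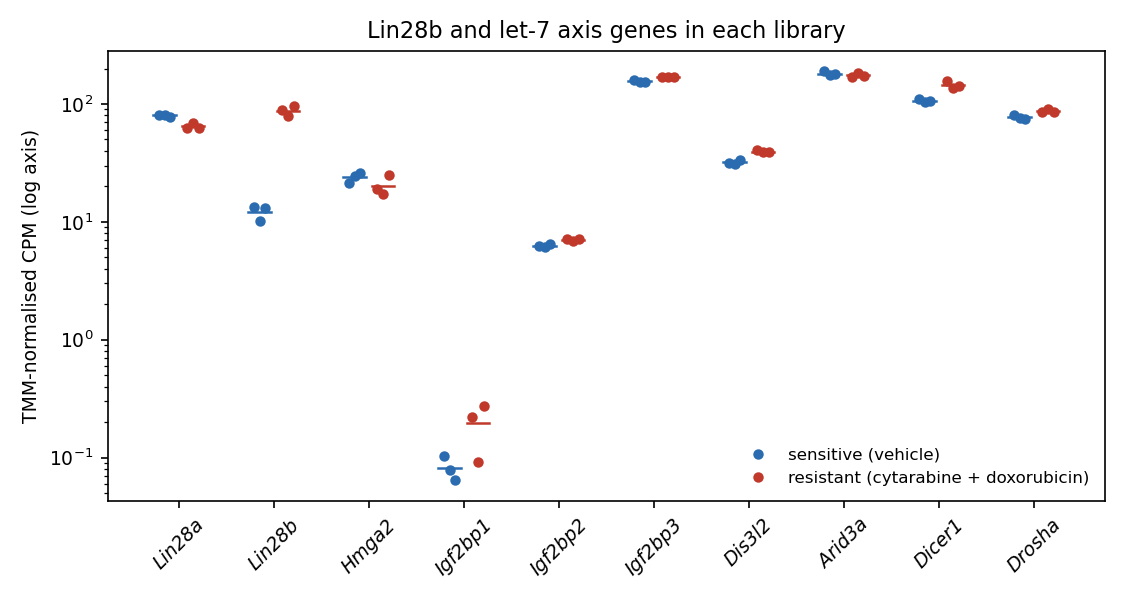
Expression of the 10 genes in every library (CPM, log axis), with blue points for sensitive and red points for resistant libraries and a horizontal line at each group's mean. Lin28b goes from 10.2 to 13.3 CPM in the sensitive libraries to 78.8 to 95.3 CPM in the resistant ones, while the points of Hmga2 and Arid3a overlap between groups.

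Lin28b was the gene of the axis that differed most. In the sensitive libraries its level was 13.3, 10.2 and 13.0 CPM, from 388, 260 and 406 counts. In the resistant libraries it was 88.9, 78.8 and 95.3 CPM, from 2820, 1731 and 2442 counts. The lowest resistant library therefore stood far above the highest sensitive one, and the spread within each group was small beside the gap. The group means were 12.2 ± 1.73 and 87.6 ± 8.31 CPM (SD, n = 3 each), a 7.17-fold higher level in resistant blasts and a log2 fold change of 2.84 ± 0.11 (SE). In size this exceeded 98.9% of all tested genes, and 46 tested genes had a larger increase.

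Lin28a, on chromosome 4, moved the other way and far less. It was read at 81.0, 80.6 and 78.0 CPM in sensitive blasts and at 62.6, 68.9 and 63.0 CPM in resistant blasts, with no overlap. The means were 79.9 ± 1.65 and 64.9 ± 3.55 CPM (SD, n = 3 each), 1.23-fold lower in resistant blasts (log2 fold change -0.30 ± 0.06, SE). Lin28a was thus well expressed in blasts of both groups, and the paralogs did not change in parallel. Markers of pluripotent cells, in which Lin28a is best known, were at or near 0: Pou5f1 and Zfp42 had no count in any library, and the summed level of the 5 markers was at most 0.417 CPM.

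To compare the paralogs with each other, CPM were divided by the length of each gene's merged exons in kilobases, which gives a level per length. On that scale Lin28a stood at 20.3, 20.2 and 19.5 in sensitive blasts against 1.47, 1.12 and 1.44 for Lin28b. In resistant blasts Lin28a stood at 15.7, 17.3 and 15.8 and Lin28b at 9.80, 8.69 and 10.5. Per length, Lin28a remained the more abundant paralog in all 6 libraries. In CPM not divided by length, Lin28b stood above it in every resistant library. The level per length of Lin28a over that of Lin28b went from 15.1 ± 2.46 to 1.69 ± 0.257 (SD, n = 3 each). Lin28b made up 6.30 ± 0.887% of the 2 paralogs' summed level in sensitive blasts and 37.3 ± 3.41% in resistant blasts. The sum itself was 21.3 ± 0.396 and 25.9 ± 0.393, so the makeup of the pair moved more than its total. With the length of the longest transcript in place of merged exons, the Lin28b share was 9.01 ± 1.23% and 46.7 ± 3.65%. The sum with that length was 25.04 ± 0.479 in sensitive and 34.73 ± 0.755 in resistant blasts, a larger rise than with merged exons. The size of the share and the rise of the sum thus depend on the length used. Share and sum were larger in resistant blasts with both lengths.

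**Figure D2:**
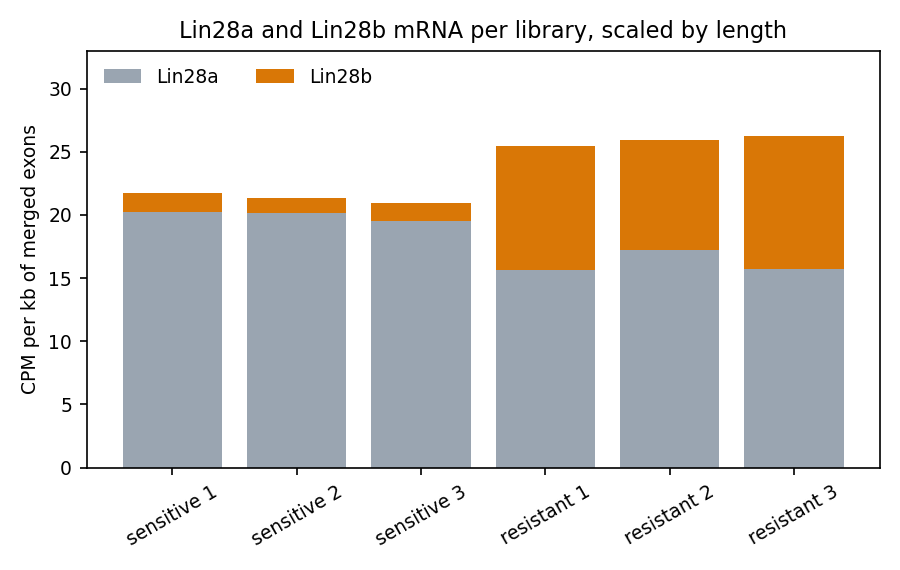
Stacked bars of the level per length of Lin28a and Lin28b (CPM per kb of merged exons), 1 bar for each of the 6 libraries. Lin28b makes up 5.28 to 6.86% of the bar in the sensitive libraries and 33.5 to 40.0% in the resistant ones.

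Among the let-7-repressed genes, Hmga2 is the best-known target, a chromatin-binding protein of fetal and tumour cells. It was read at 21.3, 24.4 and 26.1 CPM in sensitive blasts and at 18.9, 17.1 and 24.9 CPM in resistant blasts. The third resistant library lay inside the sensitive range, and the other two lay below it. The log2 fold change was -0.24 ± 0.13 (SE), opposite in sign to that of Lin28b, and it ran from -0.40 to -0.12 over the alternatives, with -0.40 where the third resistant library was left out.

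The IGF2BP proteins bind mRNAs and stabilize them, and as a family they are typical of fetal tissue and of many tumours. Igf2bp3 was the abundant member, with 161, 154 and 154 CPM in sensitive blasts and 170, 168 and 171 CPM in resistant blasts. The ranges did not overlap, but the gap was narrow, and the log2 fold change was 0.12 ± 0.05 (SE). Its exons share 1529 bases with Malsu1 on the opposite strand, and the strand setting of the counting was not given in the sources used here, so part of its count may come from that gene. The same limit holds on a smaller scale for Lin28a, Hmga2 and Igf2bp1. They share 234, 140 and 43 exon bases with opposite-strand genes that were not rows of the count table. Igf2bp2 was low, at 6.19, 6.16 and 6.51 CPM against 7.12, 6.83 and 7.10 CPM, with a log2 fold change of 0.16 ± 0.11 (SE). Igf2bp1 was barely detected, with 3, 2 and 2 counts in sensitive libraries and 7, 2 and 7 in resistant ones. The ratio of its summed counts, 16 over 7, was 2.47 after scaling, with a 95% exact interval of 0.961 to 7.1. That interval covers counting error of the summed counts and not variation between libraries. The counts were too low to read a difference or its absence.

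Arid3a encodes a DNA-binding protein of the ARID family that acts in B-cell and early blood cell development and is repressed by let-7. Its level was 190, 175 and 179 CPM in sensitive blasts and 168, 185 and 172 CPM in resistant blasts, and the groups overlapped. The log2 fold change was -0.05 ± 0.06 (SE), close to 0.

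Dis3l2 encodes the exonuclease that degrades uridylated let-7 precursors. It was read at 31.7, 31.0 and 33.8 CPM in sensitive blasts and at 40.9, 38.8 and 38.8 CPM in resistant blasts, with no overlap. The means of 32.2 ± 1.44 and 39.5 ± 1.21 CPM (SD, n = 3 each) were 1.23-fold apart (log2 fold change 0.30 ± 0.07, SE).

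Dicer1, which makes the mature microRNA from its precursor, was 110, 104 and 107 CPM in sensitive blasts and 156, 137 and 143 CPM in resistant blasts. All resistant libraries lay above all sensitive ones, at means of 145 ± 9.93 and 107 ± 2.81 CPM (SD, n = 3 each), 1.36-fold higher (log2 fold change 0.45 ± 0.06, SE). Drosha, which releases the precursor from the primary transcript, was 81.3, 76.2 and 74.9 CPM against 85.9, 90.4 and 85.0 CPM. Its groups did not overlap either, but the change was small, at 1.12-fold (log2 fold change 0.17 ± 0.06, SE, and 0.14 to 0.21 over the alternatives).

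**Figure D3:**
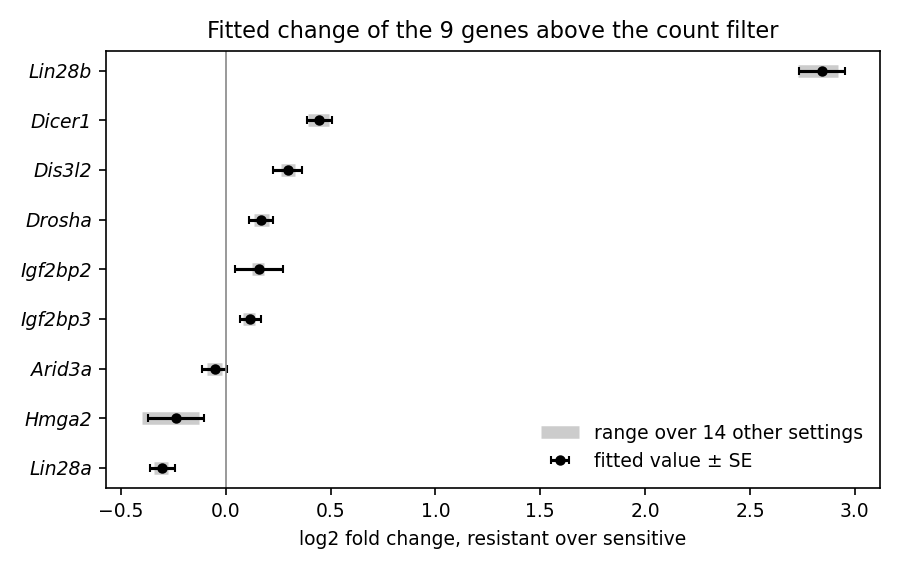
Fitted log2 fold change (resistant over sensitive) of the 9 tested genes of the axis, with points and bars for the fitted value ± SE, grey bars for the range over 14 alternative settings, and a vertical line at 0. Lin28b lies at 2.84 and stays between 2.73 and 2.92, while the other 8 genes lie between -0.30 and 0.45.

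In order of level per length in sensitive blasts, Arid3a led with 32.6 CPM per kb of merged exons, followed by Lin28a (19.99), Igf2bp3 (19.2), Drosha (13.0), Dicer1 (6.37), Dis3l2 (3.61), Hmga2 (3.53), Lin28b (1.34), Igf2bp2 (0.849) and Igf2bp1 (0.00846). In that order Lin28a and Igf2bp3 overlapped between libraries, as did Dis3l2 and Hmga2, and the other neighbours did not. In resistant blasts the order per kb was Arid3a (31.5), Igf2bp3 (20.8), Lin28a (16.2), Drosha (14.7), Lin28b (9.67), Dicer1 (8.68), Dis3l2 (4.43), Hmga2 (3.0), Igf2bp2 (0.948) and Igf2bp1 (0.0201), and the libraries of Lin28b and Dicer1 overlapped. Lin28b thus went from rank 8 of 10 to rank 5, passing Hmga2, Dis3l2 and Dicer1, and no other gene moved up by more than 1 rank. The order depends on the length used: with the longest transcript, Igf2bp3 led Arid3a in sensitive (36.0 and 33.8 CPM per kb) and resistant blasts (39.0 and 32.6), Drosha stood above Lin28a in resistant blasts (19.1 and 18.5), and Lin28b was again rank 8 and rank 5.

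The labelled cell type was checked against its markers, and all 10 markers of leukemic myeloid blasts had enough counts to be tested. Of these, 3 were higher, 3 were lower and 4 did not pass. Their summed level was 4576 to 5101 CPM in sensitive and 4079 to 4780 CPM in resistant libraries. Erythroid markers, on a list of 8 with 7 tested, moved with the groups: 6 were lower in resistant blasts, and their summed level was 46.5 to 81.5 CPM in sensitive and 0.977 to 2.82 CPM in resistant libraries. Macrophage markers ran from 275 to 310 CPM in sensitive and from 344 to 435 CPM in resistant libraries, with 1 of 5 higher. The B-cell, T-cell, megakaryocyte, and stromal and endothelial lists had overlapping or low sums. In bulk RNA, fewer cells of a type and less RNA per cell cannot be told apart, and the part of these cell types in the results for the axis was not tested.

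The genes around the axis were taken from lists of other genes by function, 121 of whose genes were tested. Of these, 31 were higher and 14 were lower in resistant blasts by edgeR's test over all genes (37.2% called, against 39.2% of all genes tested), with a median log2 fold change of 0.05. The number of higher genes fell to 18 without the second sensitive library, and likewise without the third sensitive library. Over all genes tested, 18.5% were higher and 20.8% were lower. The share called in each list below is to be read beside the 39.2% of all genes tested.

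Among the 12 tested regulators of let-7 precursors, 5 were higher and 1 was lower in resistant blasts (50% called, median log2 fold change 0.18). The largest change was in Tut4, the uridylyltransferase that tails let-7 precursors bound by LIN28A. Tut4 was read at 3.34, 3.76 and 3.14 CPM in sensitive blasts and at 12.4, 10.1 and 15.1 CPM in resistant blasts, 3.69-fold higher with no overlap (log2 fold change 1.88 ± 0.16, edgeR adjusted p = 1.22e-05). Its paralog Tut7, named for its pairing with Tut4 after its values were seen, was abundant and close to unmoved (log2 fold change 0.07 ± 0.06, edgeR adjusted p = 0.393). Tent2, a terminal nucleotidyltransferase of mRNAs and microRNAs, was 56.9 ± 2.17 and 77.3 ± 6.47 CPM (SD, n = 3 each; log2 fold change 0.44 ± 0.07, edgeR adjusted p = 0.000863).

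Zc3h12a, whose product (Regnase-1) cleaves precursor microRNAs, was the lower gene of that list, at 11.7 ± 0.539 and 8.49 ± 0.394 CPM (SD, n = 3 each; log2 fold change -0.46 ± 0.10, edgeR adjusted p = 0.00468). Msi1, an RNA-binding protein that works with LIN28 in precursor retention, rose from 8, 11 and 16 counts to 44, 18 and 57 counts (log2 fold change 1.85 ± 0.41, edgeR adjusted p = 0.00489), a low level in both groups. The other 2 higher genes, Dhx9 and Khsrp, named after their values were seen, each changed by a log2 value of 0.20. They lost their calls under 5 and 6 of 14 alternatives, with adjusted p-values up to 0.164 and 0.113. The count of higher genes in this list was 3 with library totals alone as the scaling, without the third resistant, and without the second or the third sensitive library. The count of lower genes was 2 with library totals alone and without the third resistant library.

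Of the 20 microRNA-processing and effector genes, all tested, 4 were higher and 2 were lower in resistant blasts (30% called, median log2 fold change 0.01). Xpo5, the exporter of precursor microRNAs from the nucleus, was higher, at 133 ± 4.11 and 191 ± 15.2 CPM (SD, n = 3 each; log2 fold change 0.53 ± 0.07, edgeR adjusted p = 0.000151). Ago2, the slicing Argonaute, was 122 ± 9.0 and 146 ± 7.15 CPM (log2 fold change 0.26 ± 0.07, edgeR adjusted p = 0.0106), and its adjusted p was 0.0577 without the third sensitive library. Ddx17, a helicase of the Drosha complex, was lower, at 411 ± 11.4 and 312 ± 26.2 CPM (log2 fold change -0.40 ± 0.06, edgeR adjusted p = 0.000822). Tnrc6c, a GW182 protein of the silencing complex, was also lower (log2 fold change -0.22 ± 0.06, edgeR adjusted p = 0.0178), and its adjusted p reached 0.066 when the second resistant or the first sensitive library was left out. The number of higher genes fell to 2 without the second resistant or the second sensitive library and to 1 without the third sensitive library. The number of lower genes fell to 1 without the second resistant or the first sensitive library.

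Among 28 tested genes reported as let-7 targets, 7 were higher and 4 were lower in resistant blasts, 39.3% called, with a median log2 fold change of 0.02. Higher targets included Map4k3, a kinase of amino acid signalling, which went from 2.88 ± 0.244 to 7.69 ± 1.06 CPM (SD, n = 3 each; log2 fold change 1.42 ± 0.15, edgeR adjusted p = 5.91e-05). Cdk6, the kinase that drives G1 progression in MLL-rearranged leukemia, was higher too, at 120 ± 5.45 and 162 ± 7.59 CPM (log2 fold change 0.44 ± 0.06, edgeR adjusted p = 0.000246). In the opposite direction, the insulin-like growth factor receptor gene Igf1r went from 17.1 ± 0.702 to 10.1 ± 1.04 CPM (log2 fold change -0.76 ± 0.10, edgeR adjusted p = 0.000284). The insulin receptor gene Insr went from 45.1 ± 1.32 to 31.0 ± 2.26 CPM (log2 fold change -0.54 ± 0.07, edgeR adjusted p = 0.000295). The reported targets thus split in both directions. The oncogene target Myc, named after its values were seen, did not pass (log2 fold change -0.10 ± 0.11, edgeR adjusted p = 0.469). Without any 1 of the 3 sensitive libraries, 4 targets were called higher.

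A list of imprinted genes and genes linked to fetal programs, some of them as regulators, had 17 genes in the table. Of these, 9 had enough counts to be tested, with 3 higher and 1 lower (44.4% called, median log2 fold change 0.21). Grb10, an imprinted adaptor of insulin receptor signalling, was higher, at 4.89 ± 1.18 and 16.1 ± 1.18 CPM (SD, n = 3 each; log2 fold change 1.73 ± 0.16, edgeR adjusted p = 2.1e-05). The de novo methyltransferase gene Dnmt3b was 25.3 ± 1.86 and 32.9 ± 1.52 CPM (log2 fold change 0.38 ± 0.08, edgeR adjusted p = 0.00416). Mest, an imprinted gene, had 4, 5 and 6 counts against 14, 11 and 12 (log2 fold change 1.40 ± 0.39, edgeR adjusted p = 0.0164), and its adjusted p was up to 0.125 with DESeq2 or without the first or second sensitive library. Ezh2, the Polycomb methyltransferase, was lower, at 173 ± 12.3 and 136 ± 13.8 CPM (log2 fold change -0.35 ± 0.08, edgeR adjusted p = 0.00609). The number of lower genes in this list was 3 with no low-count filter and without the third sensitive or any 1 of the resistant libraries. Igf2 and Bcl11a, named after their values were seen, had too few counts for the main test. Igf2 had 24, 15 and 7 counts in sensitive libraries against 3, 2 and 0 in resistant ones. Bcl11a had 16, 14 and 7 against 3, 2 and 2. A place on this list does not mark a gene as fetal in expression, so these lower counts are not read as loss of fetal genes. The embryonic globin genes Hbb-y, Hbb-bh1 and Hba-x had no counts, and H19 and Meg3 were not analysed here.

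The 4 tested cold-shock domain genes, relatives of LIN28 through its RNA-binding fold, gave 3 higher and none lower (75% called, of only 4 genes). Carhsp1 was highest in change, at 31.1 ± 0.715 and 47.4 ± 3.74 CPM (SD, n = 3 each; log2 fold change 0.60 ± 0.07, edgeR adjusted p = 0.000152). Ybx3 changed less (log2 fold change 0.23 ± 0.06, edgeR adjusted p = 0.0133). Without the second sensitive library only Carhsp1 of these passed. Ybx3 then had an adjusted p of 0.0514.

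Of 18 exosome and exonuclease genes tested, 5 were higher and 2 were lower in resistant blasts (38.9% called, median log2 fold change 0.07). Dis3, the catalytic exosome subunit related to Dis3l2, was 72.6 ± 3.09 and 99.8 ± 6.61 CPM (SD, n = 3 each; log2 fold change 0.46 ± 0.06, edgeR adjusted p = 0.000365). Exosc2, a cap subunit, was also higher (log2 fold change 0.25 ± 0.06, edgeR adjusted p = 0.00685). Exosc8, a ring subunit, was lower (-0.25 ± 0.06, edgeR adjusted p = 0.00735, and 0.0531 without the second sensitive library), as was the 5′ to 3′ exonuclease gene Xrn1 (-0.40 ± 0.10, edgeR adjusted p = 0.00879). The higher count was 2 without the second or the third sensitive library, and the lower count was 1 without the second.

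Of the 12 other ARID family genes tested, 2 were higher and 3 were lower (41.7% called, median log2 fold change -0.11). Arid2, a subunit of the PBAF chromatin remodeller, was 427 ± 11.8 and 591 ± 55.5 CPM (SD, n = 3 each; log2 fold change 0.47 ± 0.07, edgeR adjusted p = 0.000418). Arid4a (-0.48 ± 0.09, edgeR adjusted p = 0.00168), Arid4b (-0.29 ± 0.08, edgeR adjusted p = 0.0149) and Jarid2 (-0.17 ± 0.06, edgeR adjusted p = 0.0345) were lower. Arid4b lost its call without the third resistant or the first or the second sensitive library (adjusted p up to 0.0639). Jarid2 lost its call without the first or the third resistant library or any 1 of the sensitive libraries (adjusted p up to 0.124). The other higher gene, Arid3b, named after its values were seen, lost its call under 10 of 14 alternatives (0.26 ± 0.09, edgeR adjusted p = 0.0486, and up to 0.144). The higher count was 1 under 8 alternatives, among them any 1 of the sensitive libraries left out, and the lower count was 1 without the first or the second of them.

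Among 18 genes that write, erase or read m6A, a mark that IGF2BP proteins bind, 2 were higher and 1 was lower (16.7% called). Fto, an m6A demethylase gene, was 83.9 ± 1.89 and 105 ± 4.61 CPM (SD, n = 3 each; log2 fold change 0.32 ± 0.06, edgeR adjusted p = 0.00125). Mettl14 (0.20 ± 0.07, edgeR adjusted p = 0.0396) and Rbm15b (-0.52 ± 0.18, edgeR adjusted p = 0.0437), subunits of the methylating complex, lost their calls under 7 and 9 of 14 alternatives, with adjusted p-values of up to 0.15 and 0.181. A further list held 12 genes of the table that encode let-7 precursors or host them, and only 1 had enough counts. That list was not a full set of host genes. This was Huwe1, a ubiquitin ligase gene whose intron holds Mirlet7f-2 and Mir98, at 351 ± 8.84 and 438 ± 11.4 CPM (log2 fold change 0.32 ± 0.05, edgeR adjusted p = 0.000607).

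**Figure D4:**
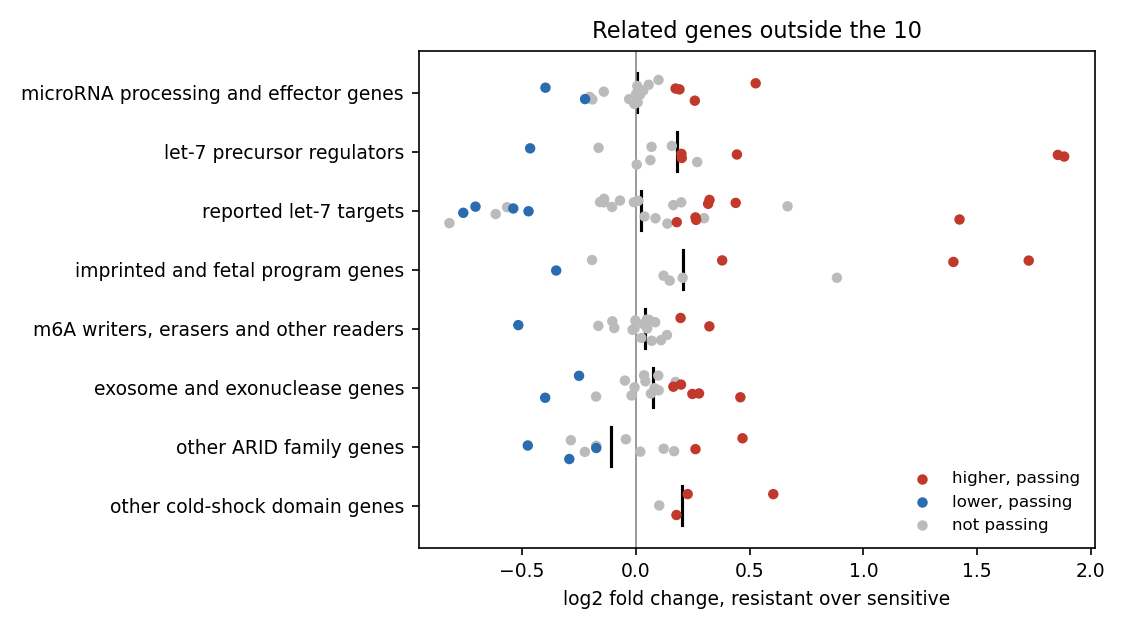
Log2 fold change (resistant over sensitive) of the tested genes in 8 lists around the axis, 1 row per list, with red points for higher and blue points for lower genes that passed the edgeR test, grey points for the others, and a black bar at each list's median. List medians lie between -0.11 and 0.21, and Tut4 (1.88), Msi1 (1.85), Grb10 (1.73), Map4k3 (1.42) and Mest (1.40) lie farthest to the right.

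Whether mRNAs with let-7 letters differed as a class was described over all tested genes with an annotated 3′ UTR outside the set. The 10665 genes without a site had a median log2 fold change of -0.01, the 1057 with 1 site one of 0.00 and the 137 with 2 sites one of -0.02. Of the 1214 genes with at least 1 site, 22.7% were higher and 22.3% were lower, against 18.8% and 21.9% of genes without a site. Genes with the 8-base form (407) had a median of -0.01. In genes whose 3′ UTR was at least 2000 bases long, the medians were 0.00 with and -0.01 without a site. The medians of genes with 1 or 2 sites were thus close to that of genes without a site.

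The 20 genes with 3 or more sites were few and had long 3′ UTRs, with a median of 5006 bases. The longest annotated ones spanned 122583, 39397, 16999 and 11064 bases, and the genes of all but the third of these were higher. No group without sites was matched to the 20 genes in length. Of the 20 genes, 10 were higher and 2 were lower (Mcf2l and Ptafr, the latter named after its values were seen), with a median log2 fold change of 0.27 and quartiles of -0.07 and 0.47. Over the alternatives this median ran from 0.23 to 0.33. It is given as a description of 20 genes with no test.

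By number of sites, Nr6a1, a nuclear receptor gene of germ and stem cells, led with 8, at 0.921 and 1.44 CPM (log2 fold change 0.67 ± 0.30, edgeR adjusted p = 0.102), which did not pass. Mcf2l had 7 sites and was lower, at 32.4 ± 2.49 and 21.3 ± 1.87 CPM (SD, n = 3 each; log2 fold change -0.61 ± 0.09, edgeR adjusted p = 0.000544). Trim6, a ubiquitin ligase gene, had 6 sites and was higher, at 6.18 ± 0.827 and 13.9 ± 2.06 CPM (log2 fold change 1.17 ± 0.14, edgeR adjusted p = 0.000122). With 4 sites each, D10Wsu102e was higher (0.33 ± 0.07, edgeR adjusted p = 0.00338; its annotated UTR spans 122583 bases), as was Hic2, a transcriptional repressor gene (0.32 ± 0.10, edgeR adjusted p = 0.0282). Hic2 lost its call without the third resistant library or any 1 of the sensitive libraries (adjusted p up to 0.117). Ptafr, also with 4 sites, was lower (-0.76 ± 0.12, edgeR adjusted p = 0.000903), and Zbtb37, named after its values were seen, did not pass (-0.12 ± 0.17, edgeR adjusted p = 0.603). Of the 10 genes of the axis, Lin28b, Hmga2 and the untested Igf2bp1 have as many sites and are described above.

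**Figure D5:**
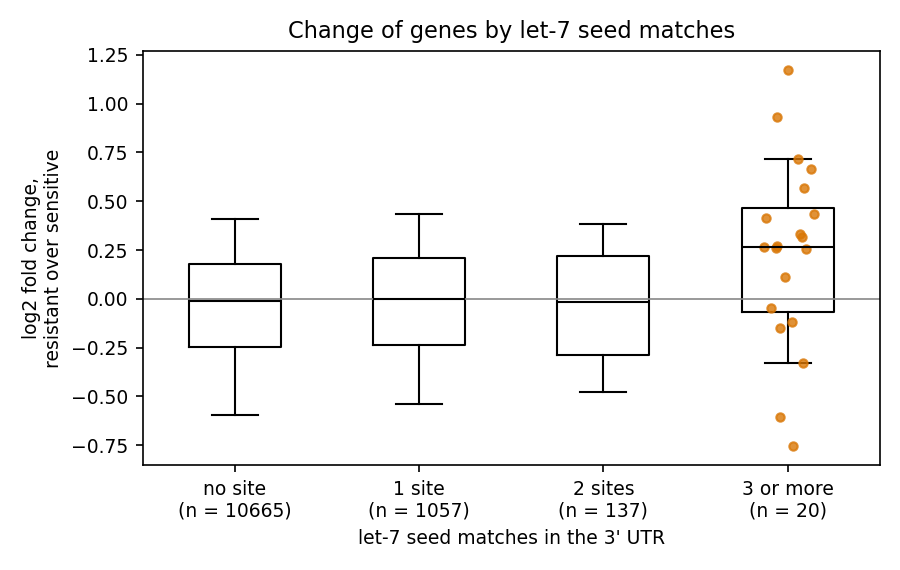
Log2 fold change (resistant over sensitive) of tested genes outside the set, grouped by the number of let-7 seed matches in the 3′ UTR; boxes show the median and quartiles, whiskers the percentiles 10 and 90, and orange points the 20 genes with 3 or more matches. The medians for no site, 1 site and 2 sites are -0.01, 0.00 and -0.02, and that of the 20 genes is 0.27.

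Finally, the genes whose level followed that of Lin28b most closely were sought over the 6 libraries by Pearson's r of log2 CPM, among the 10375 named genes whose mean count reached 50. Since 6 libraries in 2 groups drive this measure, it describes likeness of pattern only, and 78 genes had r over 0.99. The 5 most alike were Nedd4l, a ubiquitin ligase gene (r = 0.9992), the drug efflux transporter gene Abcg2 (0.9984), the glutaminyl-tRNA synthetase gene Qars (0.9984), the chaperone gene Dnajb4 (0.9979) and the ribosome biogenesis gene Utp14a (0.9974). Within the resistant libraries alone, their r was 0.97, 0.42, 0.36, 0.9 and -0.28 in that order. It was at least 0.74 for each within the sensitive ones. Each within-group r rests on only 3 libraries, and the genes were chosen for high r over all 6. These values therefore cannot show whether a gene followed Lin28b within a group. Abcg2 went from 8.09 to 29.0 CPM and Nedd4l from 36.2 to 62.5 CPM. The 5 most opposite were Tlcd2 (r = -0.9994), the mucin gene Muc13 (-0.9992), the extracellular matrix gene Tgfbi (-0.9989), Cables1, a CDK-binding protein gene (-0.9987), and the transporter gene Slco3a1 (-0.9983). Cables1 fell from 5.57 to 0.251 CPM and Muc13 from 12.5 to 3.72 CPM.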

How the data were processed

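RNA from 6 libraries was sequenced by the authors (column-purified total RNA, TruSeq library kit, HiSeq2500, per the labels' protocols). The deposited table holds whole-number counts per Ensembl gene, with 1 column per library. The submitters' processing notes name TopHat2, RSEM and mm9. The sources used here do not say whether the counts are rounded RSEM estimates or whether strand was used. Symbols came from GENCODE M21, which matched 31636 of 35932 IDs (12993 of the 13414 tested). Sequences and sites came from RefSeq and GENCODE M21 on GRCm38 and not from the counts' build.

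Genes were kept with edgeR's filterByExpr, scaled by TMM and tested with the quasi-likelihood test with Benjamini-Hochberg adjustment (R 4.3.3, edgeR 4.0.16, limma 3.58.1, DESeq2 1.42.0), threshold 0.05, on all 6 libraries with group as the only term. The scripts were tested on simulated data. SEs were derived from the F statistic. TMM factors ran from 0.978 to 1.02. No pair of libraries agreed within sampling noise.

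The genes of the axis and the lists were chosen with earlier results of these data known. The text names all 10 genes, up to 4 called genes per list with the smallest adjusted p, the 5 genes most like and the 5 most opposite to Lin28b, and up to 6 genes with most sites; other named genes are marked. Of the genes this rule names, 1 is not reported here. The alternatives were other scalings, filters and tools, a replicate block, other transcript lengths and UTRs, and leaving out each library.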

Additional observations from a re-analysis of the deposited data

How the results depend on the processing

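The Lin28b log2 fold change kept its direction and size under all 14 alternatives, at 2.73 to 2.92, and the signs of the other 8 tested genes of the axis held as well. Hmga2 ran from -0.40 to -0.12 and Igf2bp3 from 0.08 to 0.14. Over all tested genes, leaving out single libraries gave 1641 to 2521 higher genes, against 2475, and 2015 to 2711 lower genes, against 2785, with the fewest higher genes without the second sensitive library. In the lists, it gave 18 to 30 higher genes against 31, and 10 to 18 lower genes against 14. Library totals alone moved the higher share of calls from 47.1 to 40% and the median log2 fold change of all genes to -0.04. The median of genes with seed sites minus that of genes without was 0.0098, with a spread over leave-one-out fits of 0.008. It was 0.0011 with a CPM filter, 0.0006 for 8-base sites and -0.0003 to 0.0193 without single libraries. The cause of these shifts was not tested. Of 58 called genes of the lists and rules, 37 were called under every alternative, 20 lost the call under at least 1, and 1 (Msi1) was not tested under the CPM filter and was called under the others. Replicate numbers are shared between groups, but same-numbered libraries did not deviate together (correlations 0.075, 0.069 and -0.147). With 3 libraries per group, this cannot decide whether the numbers pair the libraries, and the labels do not say. With a replicate block, 5321 genes were called against 5260, Lin28b changed by 2.85, the site difference was 0.0088, and Rbm15b and Arid3b lost their calls. Low counts limit Igf2bp1 and 8 of the 17 genes of the imprinted and fetal program list.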
